A study of Mus musculus with 8 samples.

Results

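Lines m4447 and m9327 are the 2 NIC/c-SrcL/L mammary tumor cell lines in this RNA-Seq series, and here they were compared with each other. Their libraries were chosen by the line name in the labels, which gave 4 of the 8 libraries, 2 for each line. RNA-Seq was performed on lines grown from mammary tumors of FVB/N mice with the MMTV-NIC transgene, in which the MMTV promoter drives oncogenic ErbB2 and Cre recombinase from the same transcript in mammary epithelium. In m4447 and m9327 both Src alleles are conditional and open to deletion by that Cre. Lines m5567 and m8905 (NIC/c-Src+/+) carry wild-type Src with the same transgene and the same Cre, and they served only as the reference level. All 4 lines were used at passages 10 to 15 in DMEM with serum, EGF, hydrocortisone, insulin and bovine pituitary extract. Each line stands for 1 tumor, and its 2 libraries are biological duplicates of a culture of that line, so their spread holds technical and culture differences but no difference between tumors.

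c-Src is a tyrosine kinase of the cytoplasm that passes on signals from receptors such as ErbB2 to growth, adhesion and metabolism. ErbB2 is a receptor tyrosine kinase whose overproduction drives a class of human breast cancers. Polycomb Repressor Complex 2 (PRC2), which the study connects to both proteins, methylates histone H3 and keeps many developmental genes silent.

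The values are FPKM, the fragments counted on a gene scaled for how long the gene is and how many fragments the library holds, and were compared as log2(FPKM + 1). A difference on this scale understates the change of a gene with low FPKM. The library totals behind the values were 16533393 and 17253236 reads in m4447 and 17090276 and 14956966 reads in m9327. For a gene 1 kb long, 1 read in these libraries amounts to 0.058 to 0.0669 FPKM. The table lists FVB/NJ gene identifiers without names, and 0 of 39993 were found in the reference tables used here. Src, Erbb2, the PRC2 genes and markers of cell type were therefore not analysed here. Neither the deletion of Src nor the epithelial nature of the lines was checked in these values. The paper reports that its mouse lines were authenticated by PCR for the transgene and the conditional alleles. It also reports immunoblots of these lines for ErbB2, Cre and c-Src protein.

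Line m4447 and line m9327 differed in 1398 of 12673 genes tested (11%), although their genotype is the same. Of these genes 565 were higher in m4447 (4.46% of the genes tested) and 833 were higher in m9327 (6.57%), by at least 2-fold and with an adjusted p-value under 0.05 from limma. In each of the 1398 genes both libraries of one line lay above both libraries of the other, a separation also seen in 71.6% of all genes tested. The control lines m5567 and m8905 differed in 611 genes (4.82%) by the same rule. These counts depend on how low values are treated. With limma's voom on read numbers solved from the FPKM values, 838 genes were higher in m4447, 1347 higher in m9327 and 1002 called between the control lines, and with 0.1 in place of 1 added to each FPKM the counts were 803, 1291 and 963. With 1 pair of lines per genotype, whether c-Src-deficient lines in general differ more among themselves was not tested. The p-values measure only the spread between duplicates, so a call says that these 2 cultures differed and does not extend to other tumors. In whole cultures, fewer cells that express a gene and less of its RNA per cell cannot be told apart.

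**Figure D1:**
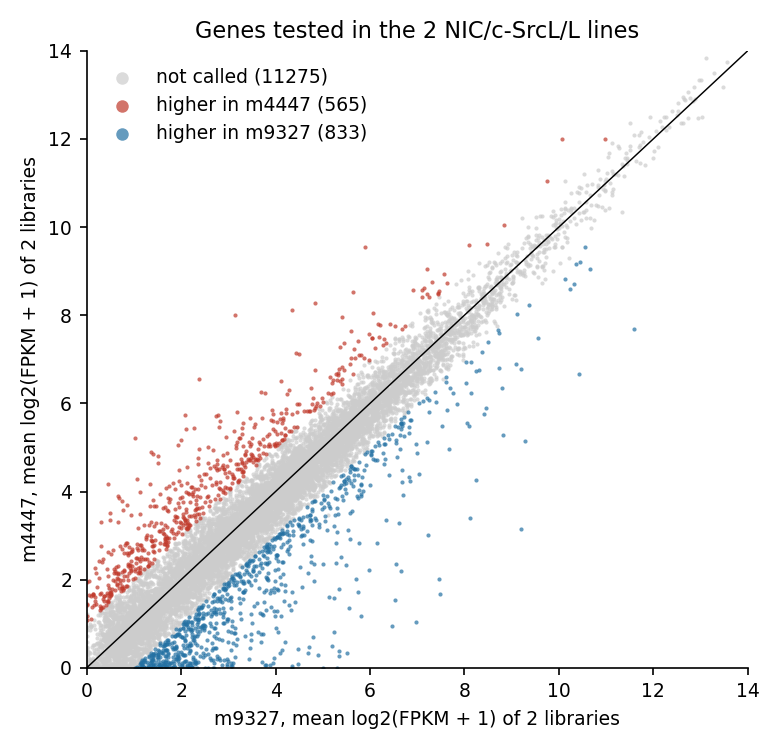
Mean log2(FPKM + 1) of 2 libraries in line m9327 (horizontal) and line m4447 (vertical) for the 12673 genes tested, with 1 point per gene and a line at equal values. The 565 genes called higher in m4447 lie above the line, the 833 called higher in m9327 lie under it, and several of the latter reach the bottom edge, where m4447 is near 0.

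The lines were farther from each other than their duplicates were. Over the 12673 genes the median absolute log2 difference was 0.16 between the duplicates of m4447 and 0.13 between those of m9327. A library of m4447 and a library of m9327 were 0.32 to 0.35 apart by the same measure, and libraries of the 2 control lines were 0.21 to 0.23 apart from each other. Duplicates of m4447 were at least 2-fold apart in 69 genes and those of m9327 in 77. Few of these were well covered, since among genes with at least 30 reads in both duplicates 4 of 10725 in m4447 and 4 of 10952 in m9327 were 2-fold apart. Between the lines, single libraries were at least 2-fold apart in 1434 to 1542 genes and at least 8-fold apart in 74 to 92. Smaller differences were widespread. Without a fold minimum 5983 genes (47.2%) passed limma's adjusted p-value threshold between m4447 and m9327, and 3029 (23.9%) between the control lines.

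By the median absolute difference, the duplicates of m4447 were the least alike of the 4 pairs. At the median of all genes tested, the first library of m4447 minus the second was -0.09 on the log2 scale, and the same difference was 0.01, 0.02 and 0.04 in m5567, m8905 and m9327. Its 100 genes with the most reads took 33.4% of the library against 29.5% in the second library, 28.0% and 28.7% in m9327 and 26.3% to 27.4% in the control lines. What part this had in the result was not tested, but the counts were also made without each library. Without the first library of m4447, 635 genes were higher in m4447 and 782 in m9327, and without the second 548 and 894.

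The balance between the directions followed the scaling. Over all genes tested the median of m4447 minus m9327 was -0.09 on the log2 scale, and 40.4% of the called genes were higher in m4447. After quantile normalization the median was 0.01, with 694 genes higher in m4447 and 690 in m9327, a share of 50.1%. Of the 1398 genes called on the deposited FPKM, 1254 were also called after quantile normalization. No statement on which line has more raised genes can be made from these counts.

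The large differences lay mostly on the side of m9327. Of the genes called higher in m9327, 207 (24.8%) differed by 4-fold or more and 29 by 16-fold or more. Of those higher in m4447, 85 (15%) differed by 4-fold or more and 3 by 16-fold or more. This order held under the other scalings, with 179 genes at 4-fold or more on the side of m9327 and 110 on that of m4447 after quantile normalization, and 192 and 110 after median ratio scaling. The median log2 difference of m4447 minus m9327 was 1.40 in the genes higher in m4447, with quartiles of 1.17 and 1.75, and -1.45 in the genes higher in m9327, with quartiles of -1.98 and -1.17. The extremes were 4.86 and -6.06. Between the control lines, 106 of the 611 called genes (17.3%) differed by 4-fold or more.

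Genes called between m4447 and m9327 were more often found at low expression. When the genes tested were ordered by their mean FPKM over the 8 libraries and divided into 5 groups of equal size, 13% and 14.5% of the genes in the 2 lowest groups were called, 11.4% in the next, and 8.84% and 7.42% in the 2 highest. Abundant genes were among them all the same. Among the genes called higher in m4447, 61 had a mean of 100 FPKM or more in that line and 8 had 500 FPKM or more, and among those called higher in m9327 the corresponding numbers were 73 and 16. By gene length, solved from the FPKM values, the share called was 13.1% in the shortest of 5 such groups, up to 990 bp, and 7.93% in the longest, from 2920 bp. The 100 genes of highest FPKM were largely common to both lines, which shared 89 of them, and the control lines shared 92.

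The 4 libraries of m5567 and m8905 show which of the deficient lines lies away from the wild-type level. A line was taken as away where its mean was at least 2-fold from the mean of the control lines and both of its libraries lay outside the range of the 4 control libraries. Of the 1398 called genes, m4447 alone was away in 592 (42.3%) and m9327 alone in 286 (20.5%). Both lines were away on the same side in 236 genes (16.9%), on opposite sides in 26, and neither was away in 258 (18.5%). Both lines were read against the same control libraries, and these positions carry no test. Among the 5983 genes called without a fold minimum, m4447 alone was away in 1281 and m9327 alone in 431. The share of each position over all genes tested is not given here. Whether the larger count for m4447 is particular to the called genes can therefore not be told.

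Genes in which m4447 alone was away comprised 310 that were lower and 282 that were higher than the controls. In the 310 lower genes the median level was 2.47 FPKM in m4447 against 10.1 FPKM in m9327, 11.2 FPKM in m5567 and 11.8 FPKM in m8905. In the 282 higher genes it was 13.1 FPKM in m4447 against 3.34 FPKM in m9327, 3.19 FPKM in m5567 and 3.18 FPKM in m8905. That m9327 lay near the control lines in both sets is set by the rule. In 79 of the 282 higher genes the control mean was under 1 on the log2(FPKM + 1) scale. Such a gene cannot lie 1 lower on this scale, although its FPKM can fall 2-fold or more. Among genes with a control mean of 1 or more 203 were higher and 310 lower. This split followed the scaling as well, with 348 higher and 247 lower after quantile normalization and 341 and 266 after median ratio scaling, or 243 and 247 and 249 and 266 among genes with a control mean of 1 or more.

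Genes in which m9327 alone was away numbered 221 that were higher than the controls and 65 that were lower. In 119 of the 221 the control mean was under 1 on the log2(FPKM + 1) scale and left no room for a fall of 1 on that scale. Among genes with a control mean of 1 or more 102 were higher and 65 lower. After quantile normalization the numbers were 199 higher and 78 lower, or 96 and 78 with that control mean, and after median ratio scaling 209 and 71, or 95 and 71. With genes tested only from a mean of 2 FPKM, the class held 184 genes in place of 286. This split by control mean was made after the data were seen. The 221 higher genes were weakly expressed elsewhere, at a median of 6.59 FPKM in m9327, 0.842 FPKM in m4447, 0.807 FPKM in m5567 and 0.83 FPKM in m8905. The 65 lower genes had a median of 2.91 FPKM in m9327, 13.0 FPKM in m4447, 13.5 FPKM in m5567 and 15.3 FPKM in m8905. A difference of 4-fold or more between the deficient lines was seen in 79 of the 221 genes and in 8 of the 65.

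Where both lines were away on the same side, they differed in how far. In 85 genes both were higher than the controls with m4447 farther away, and their median was 35.9 FPKM in m4447, 8.26 FPKM in m9327, 0.919 FPKM in m5567 and 0.985 FPKM in m8905. In 35 genes both were higher with m9327 farther away, at a median of 18.4 FPKM in m9327 and 4.20 FPKM in m4447. Both were lower in 102 genes with m4447 farther away, at 0.848 FPKM in m4447 and 6.63 FPKM in m9327, and in 14 genes with m9327 farther away, at 3.15 FPKM in m9327 and 15.4 FPKM in m4447. In the 258 genes where neither line was away, the lines lay on opposite sides of the control mean in 250. Each line was too close to that mean, or overlapped the control libraries, for the rule. Where both lines are nearer to the control mean than the fold minimum, yet that minimum apart, they must lie on opposite sides of it. For such genes the opposite sides are set by the rules, so nothing is read from the count of 250.

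**Figure D2:**
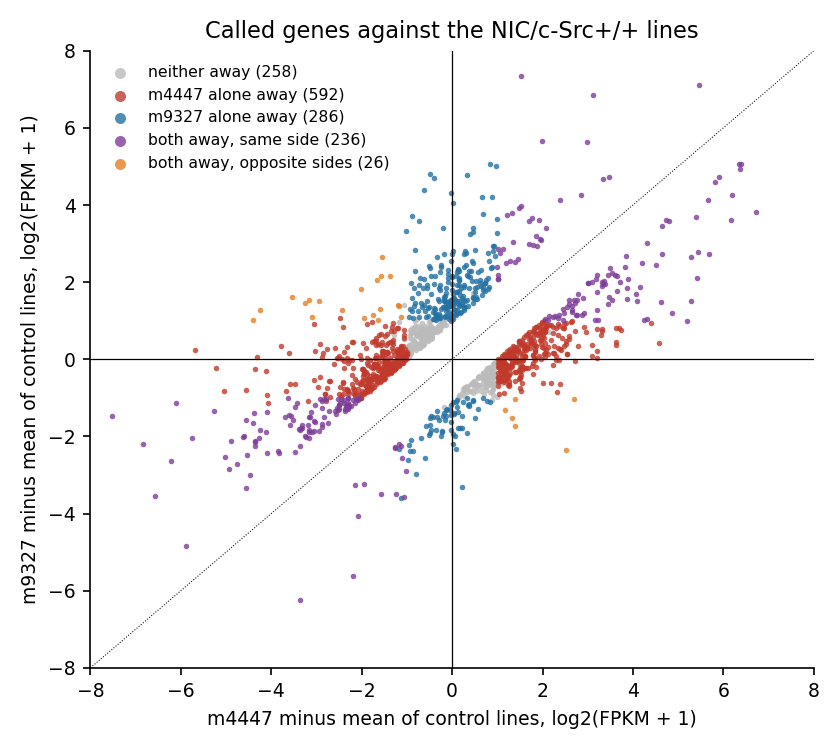
Position of the 1398 called genes against the control lines, as the difference of m4447 (horizontal) and of m9327 (vertical) from the mean of m5567 and m8905 on the log2(FPKM + 1) scale, coloured by the line that is away; both axes share the same control libraries. Genes with m4447 alone away (592) lie along the horizontal axis, those with m9327 alone away (286) along the vertical axis, and the empty diagonal holds genes that were not called.

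A gene called between the deficient lines may also differ between the control lines, and 212 genes were called in both comparisons, which use no library in common but share limma's estimate of spread. They are 15.2% of the genes called between m4447 and m9327, where 4.82% of all genes tested were called between m5567 and m8905, and 34.7% of the genes called between the control lines. Among the 592 genes in which m4447 alone was away, 78 were called between the control lines, and among the 286 for m9327 alone, 47.

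For each of the 4 positions with 1 line away, the gene with the largest difference between m4447 and m9327 is given by its identifier. MGP_FVBNJ_G0023752 was lowered in m4447 alone. It stood at 107 and 100.1 FPKM in m5567, 120.3 and 95.0 FPKM in m8905, 129 and 122 FPKM in m9327, and 1.23 and 0.904 FPKM in m4447. Both m9327 libraries lay slightly above the 4 control libraries, and both m4447 libraries lay far under all of them, on 34 and 26 reads against at least 2228 elsewhere. The log2 difference of m4447 minus m9327 was -5.94 (standard error 0.134, n = 2 libraries per line, adjusted p = 2.45e-08 from limma), and the mean FPKM was 117-fold higher in m9327.

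MGP_FVBNJ_G0018416 was raised in m4447 alone. Its level was 92.0 and 92.4 FPKM in m4447, 4.82 and 3.71 FPKM in m9327, 10.5 and 10.8 FPKM in m5567, and 0.731 and 0 FPKM in m8905. Here the control lines differed from each other and m9327 lay between them, so that only m4447 was outside the wild-type range. The log2 difference was 4.15 (standard error 0.221, n = 2 libraries per line, adjusted p = 1.72e-06 from limma), a 21.6-fold ratio of the mean FPKM.

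MGP_FVBNJ_G0029467 was raised in m9327 alone. It had 36.3 and 40.3 FPKM in m9327, on 696 and 676 reads, and 0 reads in both libraries of m4447. In the control libraries it had 0.469 and 0.79 FPKM in m5567 and 0.452 and 0 FPKM in m8905, on 14 reads or fewer. Counting error allows up to 3 reads where 0 were seen, or 0.162 FPKM in the shallower m4447 library, so that, from the lower of the m9327 libraries, the gene was at least 224-fold higher in m9327. The fitted log2 difference of -5.30 (standard error 0.173, n = 2 libraries per line, adjusted p = 1.27e-07 from limma) depends on the value of 1 added to each FPKM.

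MGP_FVBNJ_G0034550 was lowered in m9327 alone, to 1.79 and 1.39 FPKM. It had 26.7 and 31.1 FPKM in m4447, between the 15.7 and 15.1 FPKM of m5567 and the 39.1 and 39.9 FPKM of m8905. The log2 difference of m4447 minus m9327 was 3.53 (standard error 0.114, n = 2 libraries per line, adjusted p = 1.19e-07 from limma), a ratio of 18.2-fold. These 4 genes were taken for their size of difference, so their separation is only a description.

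**Figure D3:**
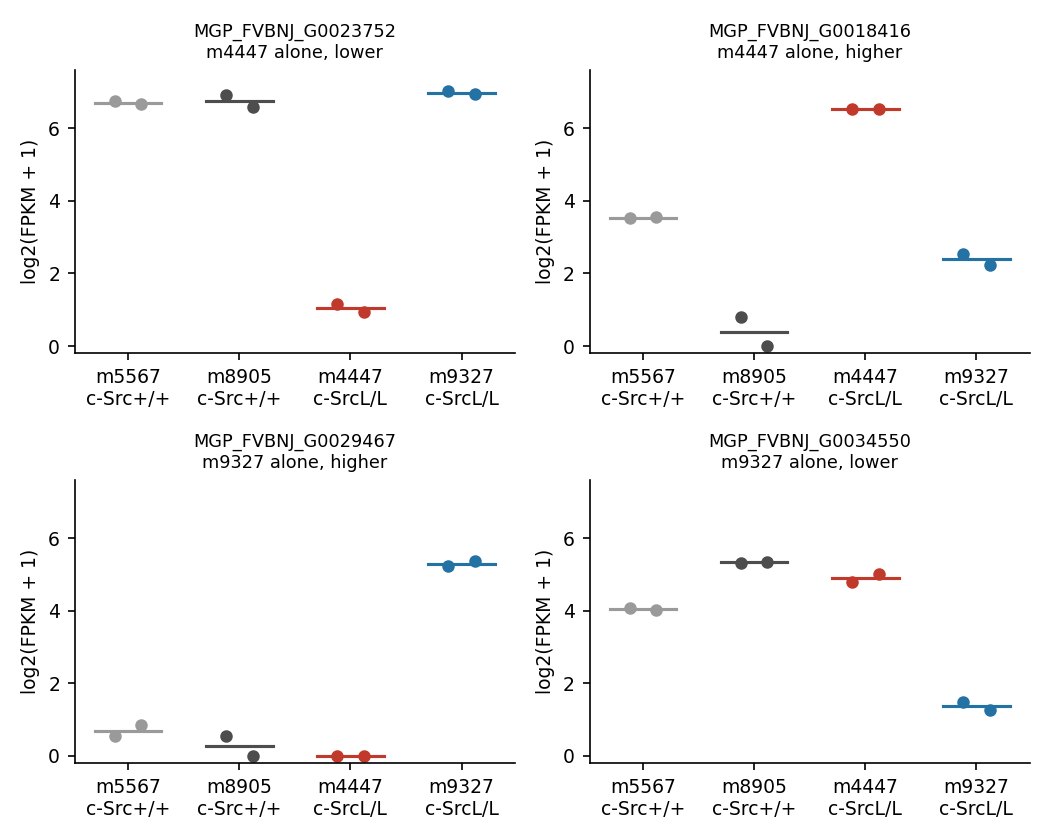
log2(FPKM + 1) of 4 genes in each of the 8 libraries, with 1 point per library and a bar at the mean of each line. In each panel 1 of the deficient lines stands apart, m4447 in the upper panels and m9327 in the lower panels, and the other lies within or close to the range of the control lines.

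Genes near 0 in 1 deficient line and expressed in the other were mostly the ones near 0 in m4447. In 105 genes both libraries of m9327 were above 1 FPKM and both libraries of m4447 under 0.1 FPKM, and in 9 genes the reverse held. Between the control lines 20 genes were near 0 in m8905 and 21 in m5567 by the same levels. In m9327 the 105 genes lay at a median of 2.15 FPKM, with 9 above 10 FPKM and a highest level of 38.3 FPKM, and a median of 63.5 reads per m9327 library. In 100 of them each m9327 library held at least 10 reads, and in 40 both m4447 libraries held 0 reads. The 9 genes of the reverse kind were lower, with at most 2.98 FPKM in m4447, and 5 of them had at least 10 reads in each m4447 library. With fewer libraries that must pass, this count was 36 without the first library of m4447, 42 without the second, 33 without the first library of m9327 and 18 without the second.

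The control lines show where these 105 genes stand in cells with wild-type Src. In 41 of them all 4 control libraries were above 1 FPKM, so that m4447 was the line apart. In 13 all 4 control libraries were under 0.1 FPKM, so that m9327 was the line apart. In 17 genes 1 of the control lines was above 1 FPKM in both libraries and the other was not, and the remaining 34 had intermediate control levels. None of the 9 reverse genes was above 1 FPKM in all 4 control libraries, and 2 were under 0.1 FPKM in all 4. These counts rest on levels and carry no test.

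The called genes took a modest part of each library. Genes called higher in m4447 held 4.93% and 5.40% of the reads of m4447 and 1.82% and 1.73% of those of m9327, with 2.30% to 3.00% in the control libraries. Genes called higher in m9327 held 1.48% and 1.56% of the reads of m4447 and 5.19% and 5.43% of those of m9327. In the control libraries the genes called higher in m9327 held 6.53% to 6.87%, more than in either deficient line. The order of m4447 and m9327 in these shares is set by how the genes were picked.

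**Figure D4:**
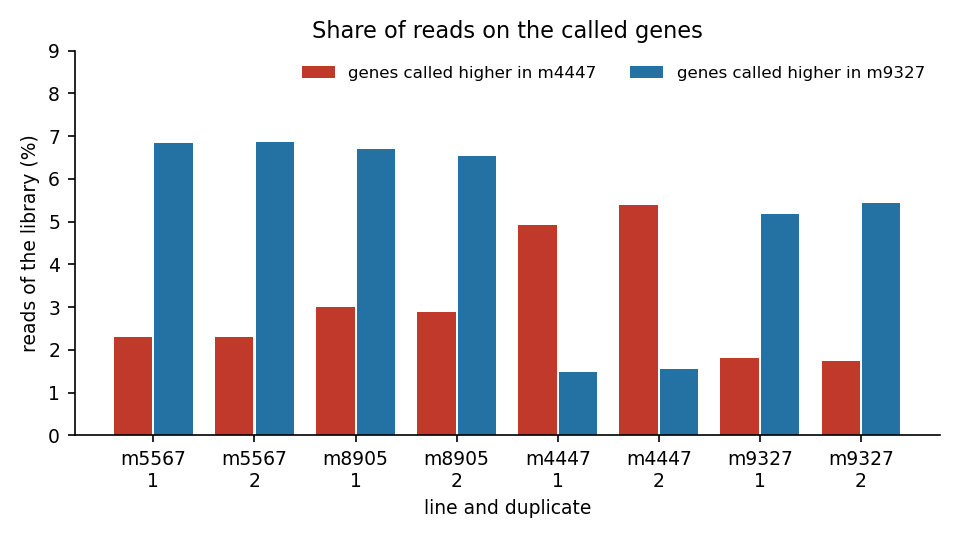
Percent of each library's reads on the 565 genes called higher in m4447 (red bars) and on the 833 called higher in m9327 (blue bars), for the 8 libraries in order of line and duplicate. The genes called higher in m9327 fall to 1.48% and 1.56% in m4447 and hold 5.19% or more in the other 6 libraries. The order of m4447 and m9327 is set by how the genes were picked.

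Differences between m4447 and m9327 were not spread evenly over the list of identifiers. This pattern was looked for after the data were seen. The identifiers carry a running number, and genes averaging 5 FPKM or more were grouped into bins of 500 consecutive numbers, of which 41 bins held at least 100 such genes (8228 genes in all). The median difference of m4447 minus m9327 in a bin, taken relative to the median over all genes used, ran from -0.27 to 0.35 on the log2 scale. It was at least 0.2 higher in 7 bins and at least 0.2 lower in 4. The medians of duplicates in the same bins ran from -0.04 to 0.03 for m4447 and from -0.10 to 0.05 for m9327. The standard deviation over bins was 0.167 between the lines against 0.02 and 0.0242 between the duplicates of m4447 and of m9327, and 0.113 between the control lines. The control lines ranged about as widely, from -0.35 to 0.35, with 2 bins at least 0.2 higher and 2 at least 0.2 lower. Adjacent genes moved together more in the control lines than in the deficient lines. With differences limited to 1 log2 unit on either side, the differences of adjacent genes, over 8497 genes, correlated at 0.274 for m5567 minus m8905, 0.181 for m4447 minus m9327, and 0.053 and 0.06 for the duplicates of m4447 and of m9327. The longest run of genes on the same side of the median was 79 in the control lines and 27 in the deficient lines, against 23 and 14 in the duplicates.

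The same bins stood out in separate libraries and separate genes. Bin medians from the first libraries of both lines and from the second libraries, which share no library, correlated at 0.97 over the 41 bins, and bin medians from odd and even identifier numbers at 0.948. These correlations are across bins of the same lines and describe only these lines. The 2 pairs of libraries gave the same sign in 37 of the 41 bins, and so did odd and even numbers. Of the genes in a bin, 74.0% to 79.0% lay above the overall median difference in the 7 raised bins and 22.6% to 30.2% in the 4 lowered bins, which were picked by that difference. The highest bin median, 0.35, was in the bin from 21501 to 22000, with 230 genes, and the lowest, -0.27, in the bin from 28001 to 28500, with 170 genes.

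Read against the control lines, m4447 was farther from the control mean than m9327 in 7 of the 11 shifted bins, and m9327 was farther in 4. The bin from 21501 to 22000 was at 0.40 in m4447 and 0.08 in m9327, and the bin from 24501 to 25000 at 0.40 and 0.08. The bin from 31501 to 32000 was at -0.07 in m4447 and -0.32 in m9327, although the difference between the deficient lines, 0.28, had the same sign as in the first pair of bins. The duplicates of m9327 were themselves -0.10 apart in that bin. The bin from 34501 to 35000 was at -0.37 in m4447 and -0.13 in m9327. In other bins the lines lay on opposite sides of the control mean, at 0.08 in m4447 and -0.14 in m9327 in the bin from 18001 to 18500 and at -0.11 and 0.19 in the bin from 28001 to 28500. In the latter the control lines were themselves apart, at 0.24 for m5567 minus m8905, so the side of m4447 cannot be told apart from the spread of the controls. In the bin from 24001 to 24500 neither was far from them, at -0.04 and -0.12. The control lines had shifted bins of their own, and for m5567 minus m8905 the bin from 27501 to 28000 was at 0.35, the bin from 21001 to 21500 at -0.35 and the bin from 29001 to 29500 at -0.34. Over all 41 bins 4.44% of 11515 genes tested were called higher in m4447 and 6.55% higher in m9327. In the 7 raised bins 6.78% of 2021 genes tested were called higher in m4447 and 5.49% higher in m9327, in the 4 lowered bins 2.64% and 8.11% of 1061, and in the other 30 bins 4.1% and 6.61% of 8433. Since the bins were picked by the same difference that makes the calls, nothing is read from these shares. Without the called genes the standard deviation over bins was 0.158, so the shift was also carried by genes that were not called. What consecutive identifiers have in common is not given in the sources used here, and the cause of the pattern was not tested.

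**Figure D5:**
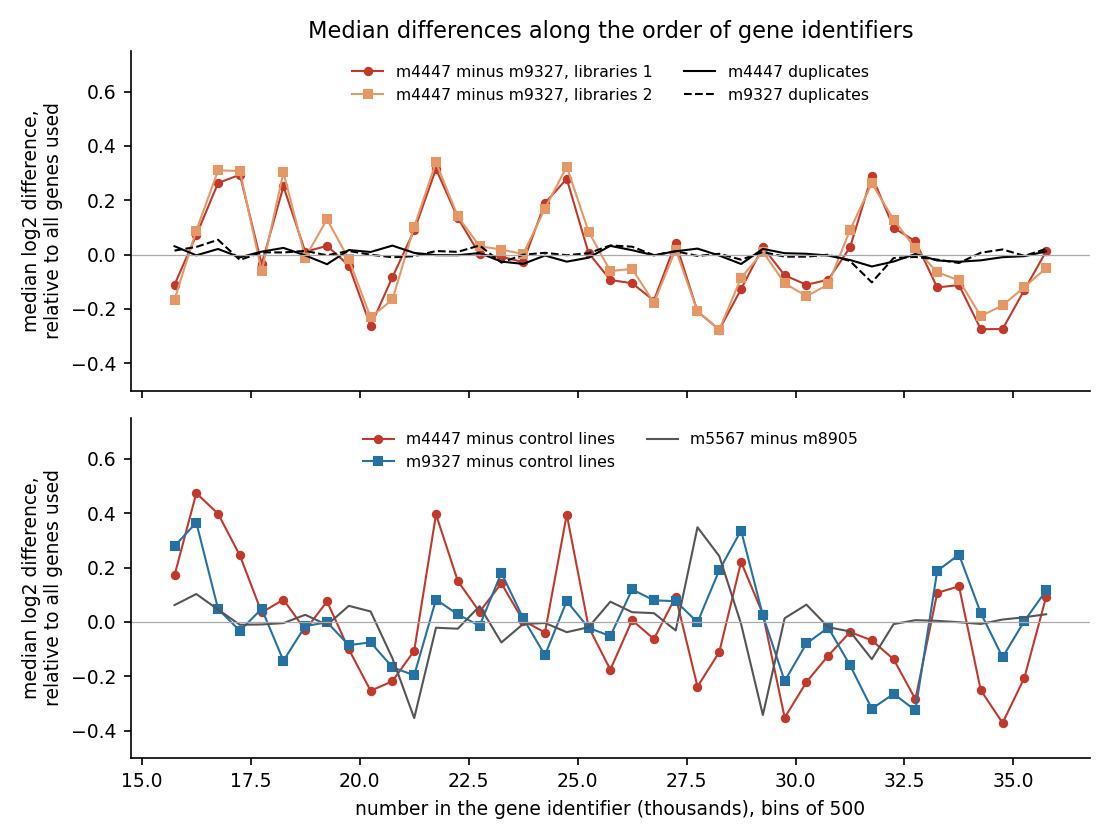
Median log2 difference, relative to the median over all genes used, in 41 bins of 500 consecutive identifier numbers (horizontal). The upper panel shows m4447 minus m9327 for the first and the second libraries of each line, which rise and fall together between about -0.28 and 0.34, and the duplicates of each line, which stay close to 0, and the lower panel shows each deficient line against the control lines and the control lines against each other.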

How the data were processed

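The 8 RNA-Seq libraries come from 4 lines, 2 of each genotype, with 2 libraries per line. The authors used TopHat 2.0.12 and Bowtie 2.2.3 to place paired-end reads on the FVB/N genome, counted them per gene with HTSeq 0.6.1 and deposited FPKM computed from gene length and read number. The annotation release and the strandedness of counting are not given in the sources used here, so overlapping and antisense genes cannot be told apart. Members and lists were chosen with earlier results of these data known.

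The 12673 genes averaging 0.5 FPKM or more across the 8 libraries were fitted as log2(FPKM + 1) with limma 3.58.1 in R 4.3.3, with 1 coefficient per line, 4 residual degrees of freedom and 4.68 prior degrees of freedom, without trend or robust options. The contrast was m4447 minus m9327, and calls needed a Benjamini-Hochberg adjusted p-value under 0.05 and a 2-fold difference. The 8 libraries share 1 estimate of the spread between duplicates. Whole reads, gene lengths and library totals were solved from the FPKM values within 0.0002 reads (numpy 2.4.6, pandas 2.3.3, Python 3.11.15) for all 22673 genes above 0 in a library. Where more than 1 length fitted a gene, the smallest was taken. The reads and length of such a gene are therefore lower bounds. Both steps were also run on simulated data, but the outcome is not given here, so nothing is read from it. Figures were drawn with matplotlib 3.10.9.

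The rule for identifiers took, among called genes, the largest absolute log2 difference in each of the 4 classes with 1 line away from the controls. No other identifier is printed because names were not matched, and the gene lists set for named genes were not analysed here. Alternatives were another pseudocount (0.1), no filter and a filter at 2 FPKM, a fit of the 4 libraries compared, the duplicate number as a block, quantile and median ratio scaling, an intensity trend, no fold minimum, limma's voom on the solved reads, other limits for positions and levels, and leaving out each library. The bins of identifiers and their alternatives were chosen after seeing the data. The authors' other data types were not used here.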

Additional observations from a re-analysis of the deposited data

Results flagged for a closer look

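The 4 genes given by identifier were picked from called genes in which only m4447 or only m9327 was away from the controls. That they moved differently from the control level in the 2 deficient lines and passed limma's threshold is therefore set by the rule. Their log2 differences of m4447 minus m9327 were -5.94 for MGP_FVBNJ_G0023752, 4.15 for MGP_FVBNJ_G0018416, -5.30 for MGP_FVBNJ_G0029467 and 3.53 for MGP_FVBNJ_G0034550, each past limma's threshold over duplicates.

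In 26 called genes the deficient lines lay on opposite sides of the control range, with every library of each line outside it. In 20 of them m4447 was lower and m9327 higher than the control lines, with a median of 1.68 FPKM in m4447, 37.0 FPKM in m9327, and 11.7 FPKM in both m5567 and m8905. In 6 of them m4447 was higher and m9327 lower, with medians of 29.3 and 3.47 FPKM against 9.62 FPKM in m5567 and 11.8 FPKM in m8905. The deficient lines were at least 4-fold apart in all 26 genes, which follows from the rule. Of these genes 5 were also called between the control lines, as were 15.2% of all genes called between m4447 and m9327. The difference was tested only against the spread between duplicates, not between tumors.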

How the results depend on the processing

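Direction and call of the 4 identified genes held in all 18 other settings, with log2 differences of m4447 minus m9327 from -6.87 to -5.82, from 4.002 to 4.43, from -10.50 to -5.22 and from 3.42 to 4.16 in the order given, and limma's adjusted p-values of at most 0.0081. The widest range belongs to MGP_FVBNJ_G0029467, whose value in m4447 is 0.

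Of 54 counts of calls and positions under other settings, 42 were within 1.5 times of the reported count. A pseudocount of 0.1 gave 1291 genes higher in m9327 and 963 called between the control lines, and voom on the solved reads gave 1347 and 1002. Both settings understate low genes less than log2(FPKM + 1) does, and 1376 and 1388 of the 1398 calls were among theirs. Without a fold minimum the counts were 2305 higher in m4447, 3678 higher in m9327, 3029 between the control lines, 1281 for m4447 alone and 431 for m9327 alone, since smaller differences then count. With a line away at 4-fold, 295 genes had m4447 alone and 132 m9327 alone, and a filter at 2 FPKM left 184 for m9327 alone. The level counts depended on the limits: 51 genes were above 2 FPKM in m9327 and under 0.1 FPKM in m4447 and 159 above 1 and under 0.2 FPKM, and in the reverse direction 1 and 21. Median ratio scaling gave 654 genes higher in m4447 and 744 higher in m9327.

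Leaving out 1 library gave 537 to 635 genes higher in m4447, 782 to 894 higher in m9327, 576 to 626 with m4447 alone, 280 to 308 with m9327 alone and 612 to 639 between the control lines. The level counts were 130 to 147 for m9327 over m4447 and 18 to 42 for the reverse, higher because fewer libraries must then pass. A line with 1 library left is assumed to vary like the others.

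With the duplicate number as a replicate block, 565 genes were higher in m4447, 833 in m9327 and 613 differed between the control lines. Duplicate deviations of m4447 and m9327 correlated at 0.0157 across genes, so same-numbered libraries of these lines shared little deviation. Whether they shared a culture day or a library batch was not tested. Over all pairs of lines the correlation ran from -0.1811 (m8905 and m4447) to 0.0633 (m5567 and m8905).

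For the bins of identifiers, chosen after seeing the data, the standard deviation over bins was 0.146 to 0.18 with other bin widths, other genes or quantile normalization. At 0.058 to 0.0669 FPKM per read on 1 kb, levels under 0.1 FPKM rest on few reads.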
